A study of Mus musculus with 3 samples.

Results

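The genes described here are 10 members of the Notch pathway: the receptors Notch1, Notch2 and Notch3, the ligands Jag1, Dll1 and Dll4, and the target genes Hey1, Hey2, Heyl and Hes1. They were taken by symbol from the gene lists of the deposited count matrices, where each of the 10 matched 1 of 32285 genes. Their levels were followed across barcodes gated as endothelial cells (ECs), smooth muscle cells (SMCs), fibroblasts and immune cells.

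The study profiled the ascending aorta of a mouse model of Marfan syndrome by droplet single-cell RNA-seq, with unique molecular identifiers (UMIs) marking the captured transcripts. The design asks how the cells of a dilating aorta differ from those of the normal vessel and how losartan, a blocker of the angiotensin II type I receptor, alters them. All mice were males of the C57BL/6J strain killed at postnatal day 45. Tissue between the root and the brachiocephalic artery was pooled over the mice of a genotype or treatment arm, so that each condition is 1 library of pooled mice. The WT library came from WT littermates, for which the labels give no losartan. The mgR library came from Fbn1mgR/mgR mice, which are homozygous for a hypomorphic allele of fibrillin-1 in every cell. The mgR-LOS library came from Fbn1mgR/mgR mice given losartan at 0.6 g/L in drinking water from postnatal day 16. The labels name a vehicle arm for the drug experiment but do not say whether the mgR library was that arm. Nor do they say whether the WT mice were given vehicle. With 1 library per condition the differences between libraries have no replicate check. No p-value was computed, and genotype, treatment and library preparation cannot be told apart.

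The matrices held 7858, 10657 and 14663 barcodes in WT, mgR and mgR-LOS, of which 5361, 8076 and 12721 had 600 to 5000 genes and at most 10% mitochondrial UMIs and were kept. The kept barcodes carried a median of 13636, 12410.5 and 8334 UMIs, respectively, so mgR-LOS was the shallowest library per barcode. Fbn1 stood at 361.1, 150.1 and 116.7 CPM (UMIs of the gene per 1000000 UMIs), lower in both mutant libraries as their labels say. Libraries shared 22, 29 or 46 barcode sequences per pair. The EC gate held 109, 220 and 177 barcodes, the SMC gate 3655, 3082 and 7851, the fibroblast gate 1321, 2427 and 3064, and the immune gate 138, 1679 and 787. None of the 10 genes is a gating marker. Cdh5, the endothelial cadherin, was at 494.2 to 594.8 CPM in the EC gate and at most 2.43 CPM in the other gates. It is a marker of the EC gate, so this contrast follows from the gating and is no check of it.

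Notch receptors are single-pass membrane proteins that are cut when a ligand on a neighboring cell engages them, and the freed intracellular part joins the DNA-binding protein Rbpj to switch on target genes of the Hes and Hey families. In arteries, endothelial Notch1 with Dll4 and Jag1 is tied to arterial identity, and Notch3 is known as the main receptor of vascular SMCs and pericytes. Jag1 on endothelium and on SMCs themselves is known to engage Notch3 and to favor the contractile state of the muscle.

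Levels below are CPM, the UMIs of a gene summed over a gate and scaled by all UMIs of that gate, given in the order WT, mgR and mgR-LOS, with exact Poisson 95% intervals. Ratios between libraries carry exact conditional binomial 95% intervals. Both cover counting error only, not the spread between mice. A gene is called past the fold where its ratio is at least 1.5 or at most 1/1.5 with at least 20 UMIs over both libraries. The 3′ counts are not scaled for transcript length, so levels were compared between libraries and gates for the same gene and not between genes.

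Among the receptors, Notch1 marked the EC gate in every library. It is the receptor that ECs need for arterial specification (ENSMUSG00000026923, GRCm38 chr2:26457903-26516663, minus strand). Its EC level was 227.7 CPM (95% interval 196.8 to 262.1) in WT, 249.9 (227.2 to 274.3) in mgR and 310.5 (280.9 to 342.4) in mgR-LOS. The next gate, immune, was at 35.0, 34.9 and 40.6 CPM, and fibroblasts and SMCs followed at 20.1 to 25.5 and 6.36 to 10.4 CPM. The EC level stood apart from the other gates' intervals in all 3 libraries. The EC ratio was 1.10 (0.925 to 1.31) for mgR over WT and 1.24 (1.08 to 1.43) for mgR-LOS over mgR, neither past the fold. The immune and fibroblast levels overlapped in WT and not in the mutant libraries. The annotated Notch1 locus overlaps the same-strand Mir6996 and, on the other strand, 0610009E02Rik and Gm13568.

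Notch2, a receptor with wide expression (ENSMUSG00000027878, chr3:98013527-98150361, plus strand, overlapped on the same strand by Gm42819 and Gm42820), was found in all 4 gates. It was at 61.5, 44.1 and 48.8 CPM in fibroblasts and at 54.6, 55.3 and 62.5 CPM in immune cells. SMCs held 35.1, 32.8 and 29.7 CPM. ECs held 12.9, 28.6 and 17.0 CPM, on only 11, 51 and 22 UMIs. In fibroblasts mgR over WT came to 0.717 (0.659 to 0.781), short of the fold. The EC ratios were past the fold in both comparisons, at 2.22 (1.14 to 4.72) for mgR over WT and 0.593 (0.343 to 0.996) for mgR-LOS over mgR, with wide intervals.

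Notch3 had the largest ratio of mgR over WT of the 10 genes, in fibroblasts. This receptor (ENSMUSG00000038146, chr17:32120820-32166852, minus strand, overlapped on the other strand by Gm17276) was at 18.3 CPM (17.2 to 19.5) in WT SMCs, 43.9 (42.0 to 45.8) in mgR and 44.2 (42.7 to 45.8) in mgR-LOS. In fibroblasts it was at 6.39 CPM (5.17 to 7.81), 54.8 (52.2 to 57.5) and 30.7 (28.5 to 32.9). The WT interval lay below both mutant intervals in both gates. SMCs had the highest level in WT and mgR-LOS, while in mgR the fibroblast gate was above the SMC gate. Between mgR and WT its ratio was 8.58 (6.97 to 10.7) in fibroblasts and 2.397 (2.22 to 2.59) in SMCs. For mgR-LOS over mgR it was 0.559 (0.513 to 0.609) in fibroblasts and 1.01 (0.953 to 1.07) in SMCs.

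The share of barcodes with a Notch3 UMI followed the levels. After each barcode was thinned to 1000 UMIs, the fibroblast share was 0.757%, 4.45% and 2.87%, against 4.69%, 26.7% and 13.0% without thinning. The immune gate, which should lack the receptor, had 0%, 0.179% and 0.381% after thinning (0 of 138 barcodes in WT, which allows up to 2.17%) and 0.725%, 1.01% and 1.40% without thinning. Median depth was 11527, 12324 and 8118.5 UMIs in fibroblasts and 8178.5, 7630 and 6143 in immune barcodes. The fibroblast share was thus above this background after thinning in both mutant libraries, while the WT interval of 0.364% to 1.39% lay within what the WT immune count allows.

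**Figure D1:**
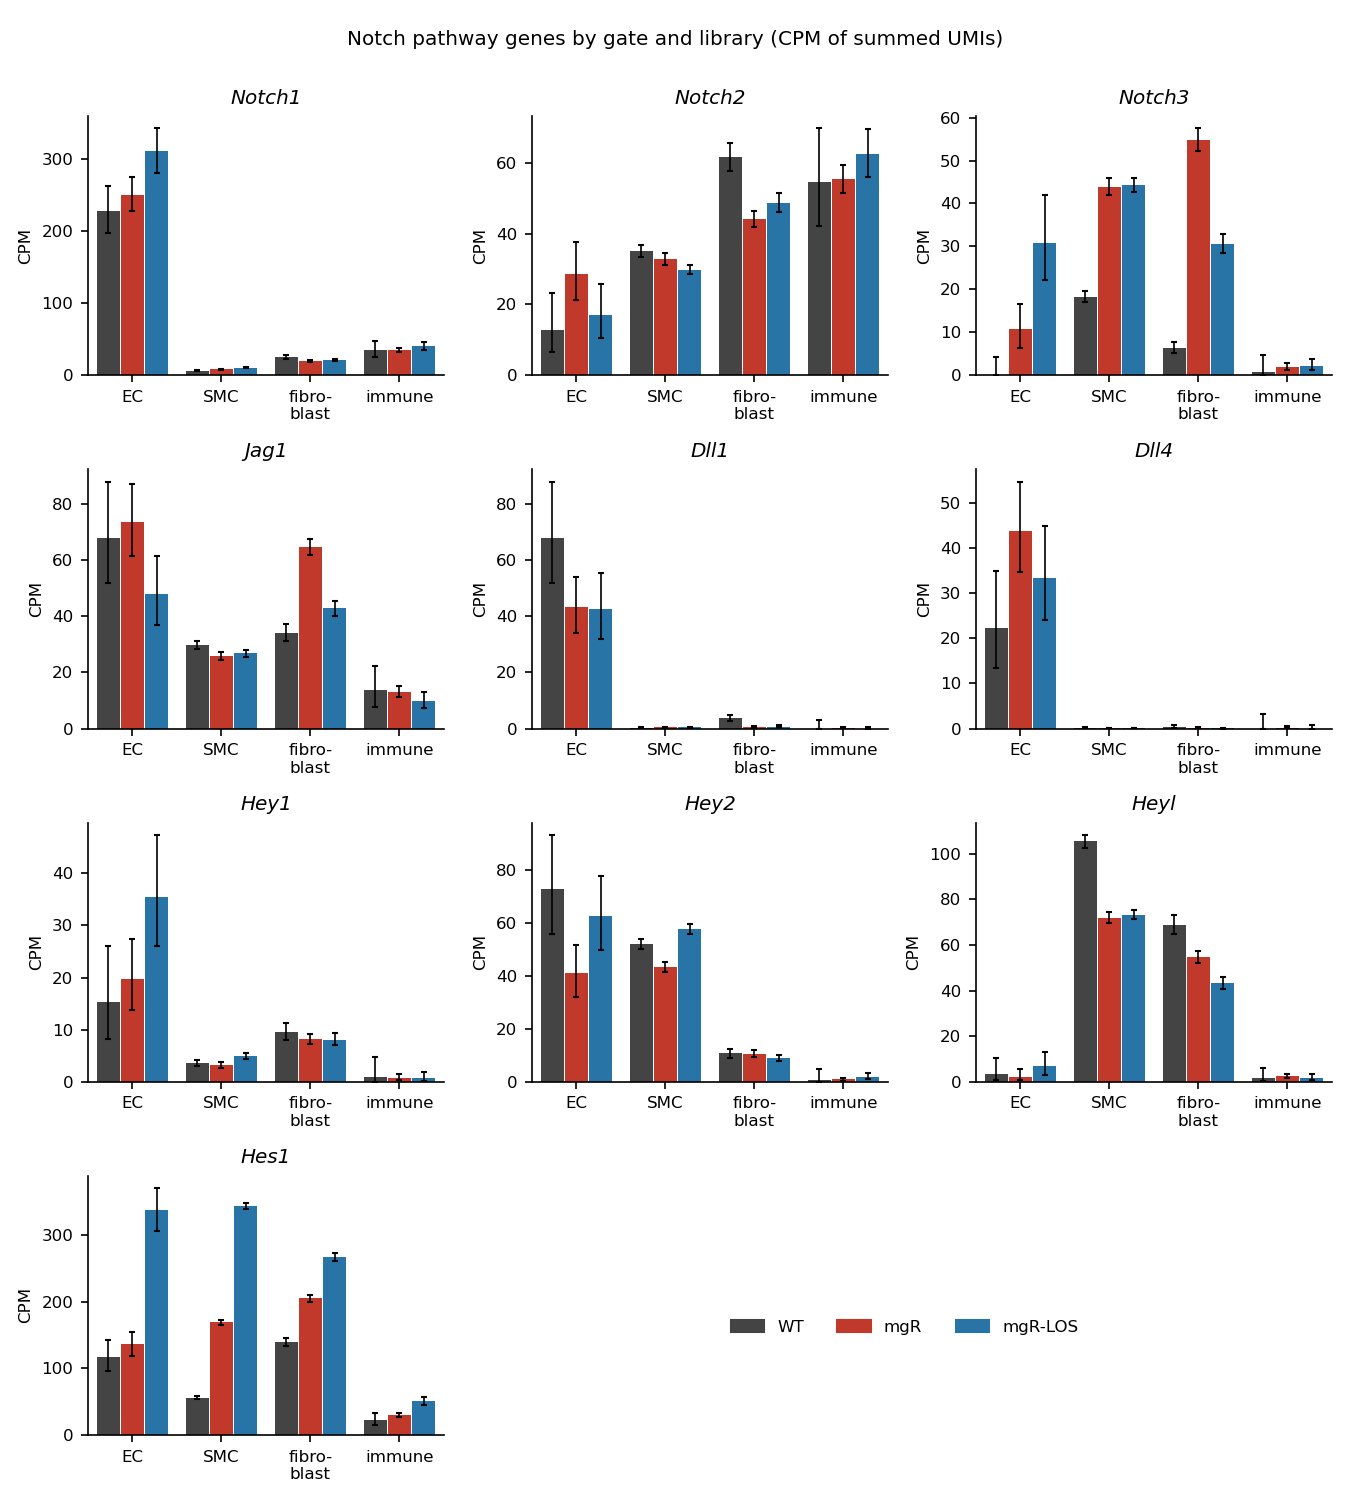
Level of each of the 10 Notch pathway genes (CPM of summed UMIs, y axis, a scale of its own per gene) in the EC, SMC, fibroblast and immune gates (x axis) of the WT, mgR and mgR-LOS libraries (1 library of pooled mice each). Bars are levels and error bars exact Poisson 95% intervals; Notch1, Dll1 and Dll4 stand highest in ECs, Notch3 is lowest in WT in both SMCs and fibroblasts, and Hes1 in SMCs goes from 55.8 to 169.1 and 343.6 CPM.

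RNA carried over from SMCs into other droplets was gauged with SMC genes that no gate uses. Lmod1, a nucleator of actin filaments in smooth muscle, reached 5.01%, 6.20% and 6.34% of its SMC level in the fibroblast gate. Notch3 reached 34.9%, 124.8% and 69.3% of its SMC level there. The other SMC genes reached 10.7%, 11.7% and 11.6% (Smtn), 4.10%, 5.43% and 6.11% (Synpo2) and 6.85%, 9.08% and 4.23% (Pln), and the 4 together summed to 138.4, 142.7 and 161.3 CPM in fibroblasts against 2301, 1814 and 2103 CPM in SMCs. Pln, which encodes an inhibitor of the calcium pump, was at 17.7, 39.2 and 40.9 CPM in SMCs and at 1.21, 3.56 and 1.73 CPM in fibroblasts, the same order of libraries in fibroblasts as that of Notch3. The part of carried-over RNA in the fibroblast Notch3 level was not tested. In immune cells Notch3 stood at 0.853, 1.99 and 2.23 CPM, or 4.66%, 4.52% and 5.03% of its SMC level, beside 2.47%, 2.48% and 2.35% for Lmod1. The immune ratio of mgR over WT, 2.33 (0.384 to 95.3), rested on 27 UMIs against 1 and has an interval that spans 1.

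The fibroblast gate was split by marker genes into barcodes carrying Pi16, Dpp4, Cd248 and Ly6c1, barcodes carrying Gdf10 and Hsd11b1, and the rest. Notch3 was concentrated in the Gdf10/Hsd11b1 barcodes, at 14.9 CPM (266 barcodes), 106.9 (1031) and 54.5 (974). The Pi16/Dpp4 barcodes held 0.875, 5.65 and 4.18 CPM, and the rest held 6.01, 28.3 and 30.8 CPM. For mgR over WT the ratio was past the fold in all 3 subsets, at 7.16 (5.21 to 10.1), 6.46 (2.09 to 32.4) and 4.71 (3.49 to 6.47). The ratio of mgR-LOS over mgR was 0.510 (0.456 to 0.568) in the Gdf10/Hsd11b1 barcodes and 1.09 (0.920 to 1.29) in the rest, which therefore did not share the lower level. Among the 661, 985 and 1013 fibroblast barcodes with the lowest SMC panel scores, limited at 0.758, Notch3 was at 3.06, 16.4 and 10.6 CPM. Its ratios there were 5.35 (3.44 to 8.73) and 0.650 (0.501 to 0.837). They held 22 of 95, 208 of 1677 and 89 of 781 fibroblast Notch3 UMIs. The SMC gene Lmod1 was at 33.8, 22.3 and 33.6 CPM in them, against 60.7, 57.2 and 66.6 in the whole gate.

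Clusters computed without the 10 genes, over all 3 libraries together and with no correction for library, split the gates in another way. Within the fibroblast gate, cluster 2, which had the highest mean SMC panel score of the fibroblast clusters, held 50, 916 and 417 barcodes (3.79%, 37.7% and 13.6% of the gate). Its Notch3 level was 43.9 CPM (29.4 to 63.0), 112.9 (107.1 to 118.8) and 118.3 (107.4 to 129.9). Cluster 3, with 716, 618 and 1466 barcodes, had 4.40, 23.9 and 22.6 CPM. Cluster 3 held most of the gate in WT, cluster 2 the largest share in mgR and cluster 3 the largest share in mgR-LOS. Within clusters, mgR over WT came to 1.61 (1.04 to 2.52) in cluster 0, 2.57 (1.78 to 3.85) in cluster 2 and 5.44 (3.62 to 8.42) in cluster 3. Within cluster 2 the ratio of mgR-LOS over mgR was 1.05 (0.939 to 1.17), in cluster 3 it was 0.945 (0.763 to 1.18) and in cluster 0 1.43 (1.01 to 2.05). The Gdf10/Hsd11b1 barcodes of cluster 2 held 125.0 CPM (118.1 to 132.1) in mgR and 105.7 (93.6 to 118.9) in mgR-LOS, those of cluster 3 held 40.7 (33.5 to 49.1) in mgR and 151 UMIs, with an interval of 25.4 to 35.2 CPM, in mgR-LOS, and the barcodes of cluster 2 with neither subset's markers held 84.2 and 150.8. The lower level of the whole gate in mgR-LOS was thus not seen in the ratio of clusters 0, 2 or 3 taken whole. The Gdf10/Hsd11b1 barcodes of clusters 2 and 3 were nevertheless lower in mgR-LOS. Their level intervals overlapped, but such overlap cannot decide whether the levels differ, and no ratio interval is given for them. Of the 417 mgR-LOS barcodes in cluster 2, 104 were called doublets, and without them the ratio was 1.12 (0.993 to 1.25).

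SMC barcodes sat in different clusters in each library as well. Cluster 5 held 81.6% of the WT gate, cluster 9 72.3% of the mgR gate, and clusters 6, 4 and 7 held 40.5%, 20.2% and 18.9% of the mgR-LOS gate. Notch3 was at 15.8 CPM in WT cluster 5 and 39.7 CPM in mgR cluster 9. Within cluster 9 the levels were 37.0, 39.7 and 42.4 CPM, with a ratio of mgR over WT of 1.07 (0.805 to 1.46) on 81 WT barcodes. Within cluster 6 the ratio was 1.09 (0.819 to 1.46) on 178 WT barcodes, within cluster 4 it was 1.92 (1.53 to 2.42) on 228, and within cluster 7 it was 2.72 (1.10 to 7.34) on 16 and 8 UMIs. In cluster 5 the 33 mgR barcodes gave 4 UMIs and a ratio of 0.554 (0.151 to 1.42). The gate's ratio of 2.397 thus went with a difference in the clusters that the barcodes fell into, and the part of that difference was not tested. Barcodes with the pericyte genes Rgs5, Kcnj8, Abcc9 and Higd1b numbered 111, 25 and 90 in the SMC gate and held Notch3 at 18.9, 218.0 and 111.1 CPM. Called doublets made up 5, 9 and 4 of them, and without these barcodes the levels were 19.8, 109.2 and 106.1 CPM, the mgR one on 14 UMIs, so that mgR-LOS over mgR went from 0.510 (0.355 to 0.737) to 0.971 (0.545 to 1.86). The other SMC barcodes were at 18.3, 43.0 and 43.5 CPM, close to the whole gate.

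**Figure D2:**
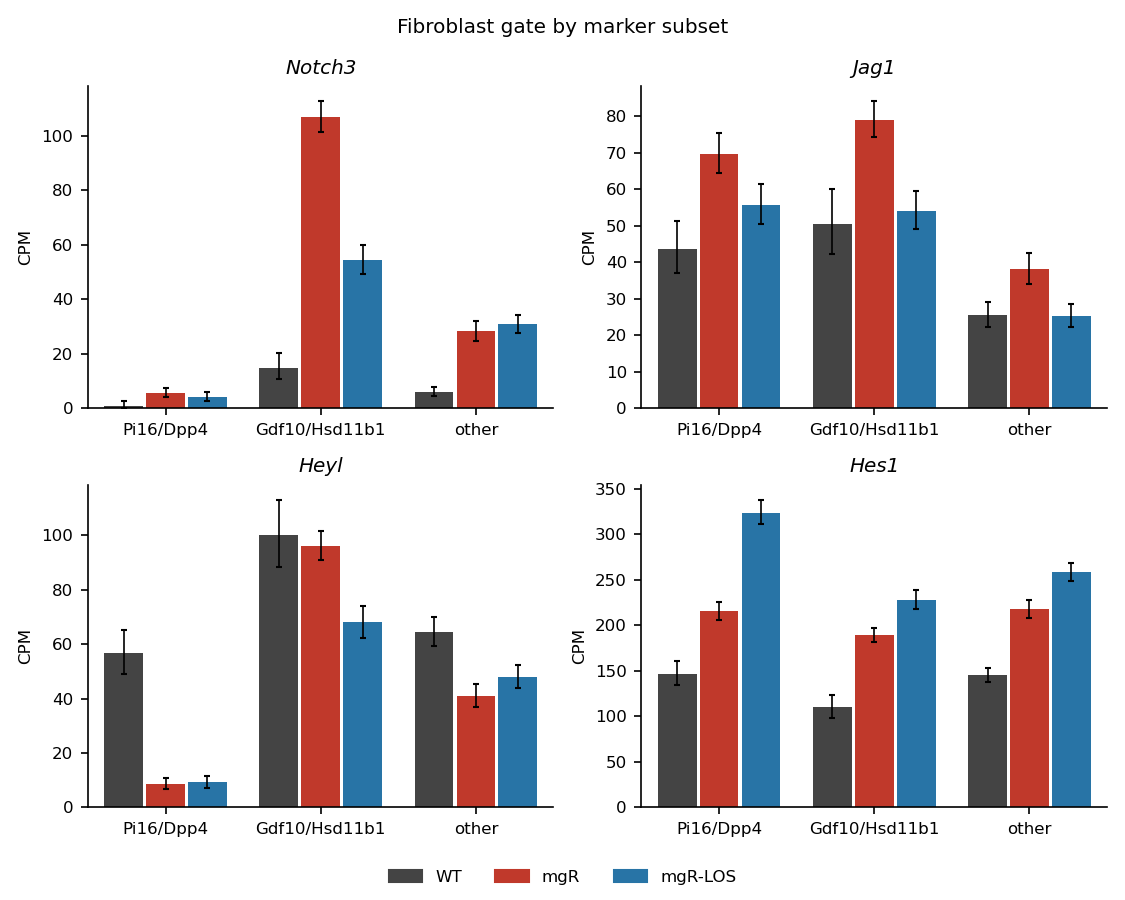
Levels of Notch3, Jag1, Heyl and Hes1 (CPM of summed UMIs, y axis) in the Pi16/Dpp4, Gdf10/Hsd11b1 and other barcodes of the fibroblast gate (x axis) of the 3 libraries, with exact Poisson 95% intervals. Notch3 in the Gdf10/Hsd11b1 barcodes was 14.9, 106.9 and 54.5 CPM, and Heyl in the Pi16/Dpp4 barcodes was 56.6, 8.75 and 9.19 CPM.

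In ECs no Notch3 UMI was seen in WT (0 of 851953 UMIs, which allows up to 3.52 CPM), against 19 UMIs or 10.7 CPM (6.43 to 16.7) in mgR and 40 UMIs or 30.9 CPM (22.1 to 42.1) in mgR-LOS. The mgR level was at least 3.03-fold higher than the WT floor of 3 counts, with a lower counting limit of 2.23 for the ratio and fewer than the 20 UMIs needed for a call, and the ratio of mgR-LOS over mgR was 2.90 (1.64 to 5.29). These UMIs came from 6 barcodes in mgR and 11 in mgR-LOS. Summed over these barcodes, Rgs5, a pericyte gene, was at 3512 and 2466 CPM, against 48.9 and 11.2 CPM in the EC-gated barcodes without Notch3. None of the 17 was called a doublet. Of the UMIs, 17 of 19 and 38 of 40 fell in the barcodes with capillary markers, all in barcodes that also reached the subset threshold for the pericyte genes. The 30 of 38 and 17 of 27 capillary barcodes below that threshold, a split made after seeing the data, held 0 Notch3 UMIs, which allows up to 14.3 and 39.2 CPM.

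Of the ligands, Dll1 and Dll4 were found mainly in ECs, and Jag1 in all 4 gates. Jag1 (ENSMUSG00000027276, chr2:137081456-137116644, minus strand) was at 68.1, 73.6 and 47.9 CPM in ECs, at 34.1, 64.7 and 42.8 in fibroblasts, at 29.7, 25.8 and 26.8 in SMCs and at 13.7, 13.2 and 9.83 in immune cells. Only in fibroblasts was the ratio of mgR over WT past the fold, at 1.90 (1.72 to 2.10), and there mgR-LOS over mgR was 0.661 (0.614 to 0.712). The SMC ratios were 0.869 (0.805 to 0.937) and 1.04 (0.964 to 1.12). The whole EC gate showed a ratio of 1.08 (0.788 to 1.499) for mgR over WT and 0.651 (0.473 to 0.887) for mgR-LOS over mgR.

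Fibroblast Jag1 was higher in mgR in every marker subset, from 43.7 to 69.7 CPM in the Pi16/Dpp4 barcodes, from 50.6 to 79.0 in the Gdf10/Hsd11b1 barcodes and from 25.5 to 38.1 in the rest, and the respective ratios were 1.59, 1.56 and 1.495. In mgR-LOS the subsets held 55.7, 54.1 and 25.2 CPM. Within clusters the ratio of mgR over WT was smaller, at 0.932 (0.705 to 1.23) in cluster 0, 1.39 (1.02 to 1.94) in cluster 2, 1.28 (1.08 to 1.51) in cluster 3 and 1.24 (0.971 to 1.60) in cluster 8. The ratio of mgR-LOS over mgR was 0.718, 0.759, 0.793 and 0.965 in those clusters.

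Dll1 and Dll4 are the delta-type ligands. Dll4, the ligand of arterial and sprouting endothelium (ENSMUSG00000027314, chr2:119325784-119335962, plus strand, overlapped on the other strand by Gm14207), was at 22.3, 43.8 and 33.2 CPM in ECs and at most 0.269 CPM in any other gate. Its EC ratio was 1.96 (1.18 to 3.44) for mgR over WT, on 78 and 19 UMIs, and 0.758 (0.510 to 1.11) for mgR-LOS over mgR. Dll1 (ENSMUSG00000014773, chr17:15367354-15376872, minus strand, overlapped on the other strand by A930024N18Rik) was at 68.1, 43.2 and 42.5 CPM in ECs, with a ratio of mgR over WT of 0.635 (0.446 to 0.909) and of mgR-LOS over mgR of 0.982 (0.682 to 1.41). ECs held 45.3%, 57.0% and 45.5% of all Dll1 UMIs of a library and fibroblasts 42.2%, 11.9% and 14.9%. The fibroblast gate held 54, 16 and 18 UMIs, or 3.63, 0.523 and 0.707 CPM, for a ratio of 0.144 (0.0769 to 0.255). Those WT UMIs came from 35 of 1321 barcodes, 9 of them from 1 barcode. After thinning, the share of fibroblast barcodes with a Dll1 UMI was 0.454%, 0.0412% and 0.0979%, against 2.65%, 0.618% and 0.555% without thinning. The thinned immune share was 0% in each library, which allows up to 2.17%, 0.179% and 0.381% and sets no background as low as these fibroblast shares. SMCs held 12, 19 and 31 UMIs.

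**Figure D3:**
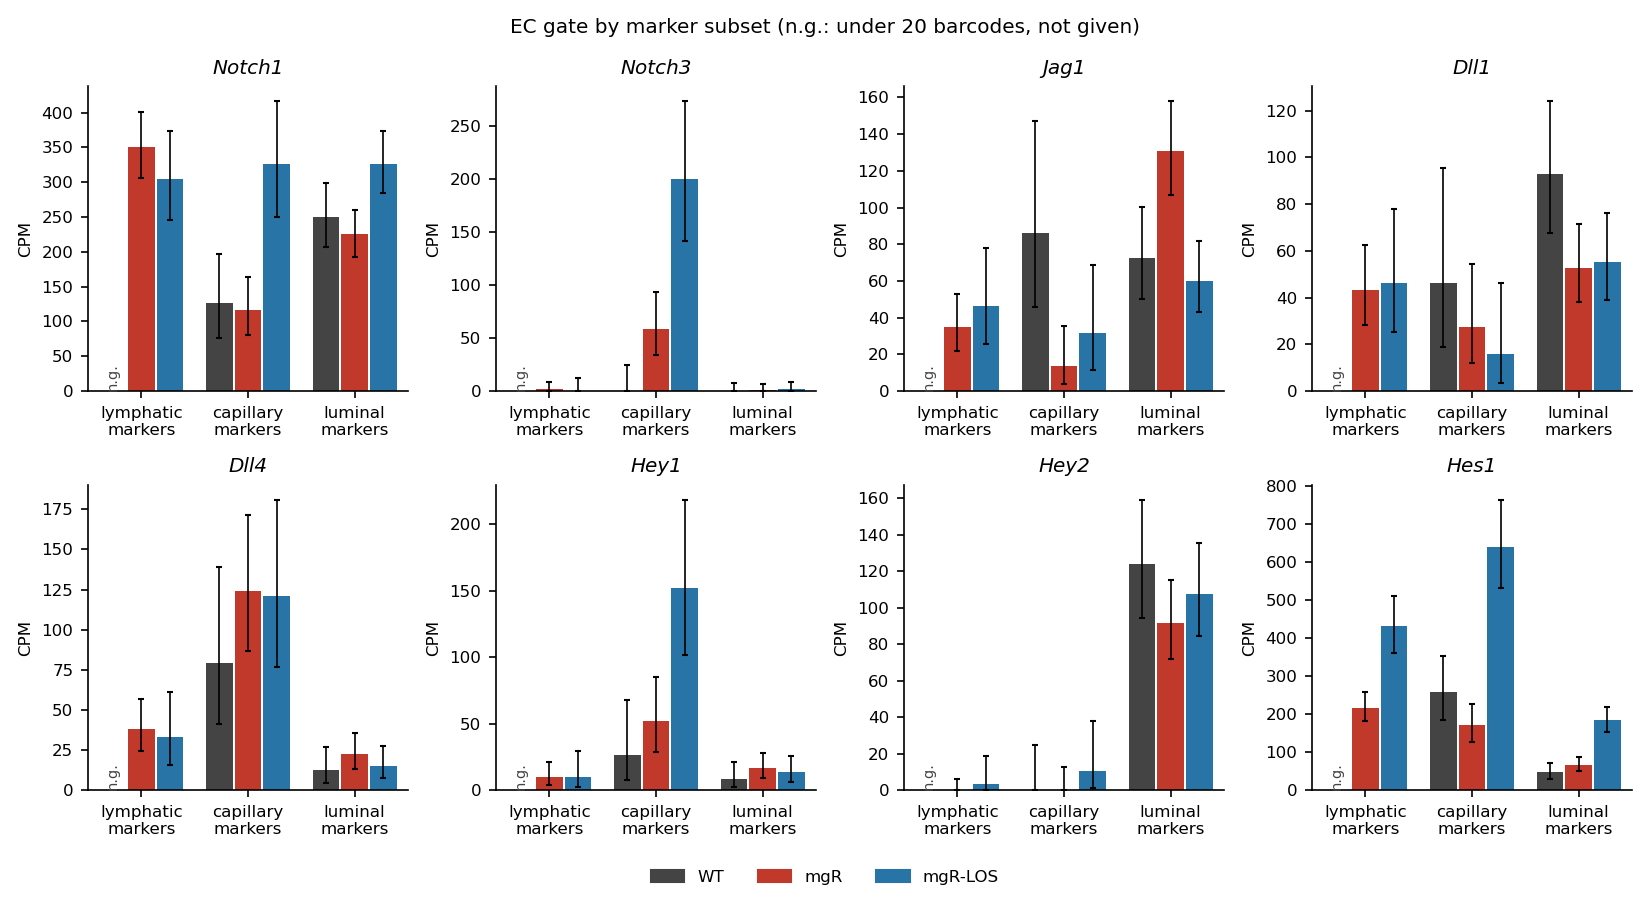
Levels of 8 Notch pathway genes (CPM of summed UMIs, y axis) in EC-gated barcodes with lymphatic, capillary or luminal aortic markers (x axis) of the 3 libraries, with exact Poisson 95% intervals; n.g. marks the WT lymphatic subset, which had 19 barcodes. Hey2 and Dll1 stand highest in the luminal barcodes, and Dll4 and Hey1 in the capillary barcodes, as does Notch3 in mgR and mgR-LOS. For Dll1 the lymphatic barcodes were close, at 43.1 CPM beside 52.8 in mgR and 46.4 beside 55.4 in mgR-LOS. Capillary Notch3 lay only in barcodes that also reached the threshold for the pericyte genes. Without those barcodes capillary Hey1 rested on 4, 2 and 5 UMIs.

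The EC gate combined different endothelia. Barcodes with the luminal aortic markers Vcam1, Bmx, Clu and Cytl1 numbered 57, 103 and 92, those with the capillary markers Cd36, Fabp4, Rgcc and Gpihbp1 numbered 22, 38 and 27, and those with lymphatic markers numbered 19, 70 and 39. Luminal Jag1 was at 72.3 CPM (50.3 to 100.5) in WT, 130.6 (106.7 to 158.3) in mgR and 59.9 (42.8 to 81.6) in mgR-LOS. The mgR interval lay above both others, and the ratios were 1.81 (1.22 to 2.73) and 0.459 (0.310 to 0.666). The arterial genes Gja4, Gja5, Sox17 and Efnb2 were also highest in mgR in the same barcodes, at 200.2, 319.0 and 265.0 CPM for Gja4, 113.5, 197.2 and 95.8 for Gja5, 101.2, 118.1 and 89.8 for Sox17, and 266.3, 336.6 and 269.5 for Efnb2. No intervals are given for these 4 genes. In the whole EC gate Gja5 and Efnb2 were again highest in mgR. There Gja4 was level in the mutant libraries, at 160.8, 205.6 and 205.5 CPM, and Sox17 was highest in mgR-LOS, at 89.2, 91.0 and 119.0. The part of the arterial genes in the luminal Jag1 level was not tested. Luminal Dll1 was at 92.9, 52.8 and 55.4 CPM, with a ratio of mgR over WT of 0.568 (0.364 to 0.885). Luminal Notch1 was at 249.8, 224.8 and 326.4 CPM, with ratios of 0.900 (0.711 to 1.14) and 1.45 (1.19 to 1.78). Capillary Notch1 was at 125.8, 117.0 and 325.4 CPM, on 19, 34 and 62 UMIs. Its ratio of mgR-LOS over mgR, 2.78 (1.80 to 4.36), was past the fold. It was not computed without the barcodes that reached the pericyte threshold. The lymphatic ratio of mgR-LOS over mgR was 0.869 (0.673 to 1.11). Dll4 was at 79.5, 123.8 and 120.7 CPM in the capillary barcodes against 12.4, 22.6 and 15.0 in the luminal ones.

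Among the targets, Hey2 was shared by ECs and SMCs. It encodes a repressor of the hairy family that acts in arterial specification and in the outflow tract (ENSMUSG00000019789, chr10:30832359-30842801, minus strand). Its level was 72.8, 41.0 and 62.6 CPM in ECs and 51.9, 43.4 and 57.6 in SMCs, with 8.79 to 10.7 CPM in fibroblasts and 0.853 to 1.85 in immune cells. The EC and SMC intervals overlapped in mgR and mgR-LOS. The EC ratio was 0.563 (0.396 to 0.804) for mgR over WT and 1.53 (1.10 to 2.12) for mgR-LOS over mgR, and the SMC ratios were 0.836 (0.789 to 0.886) and 1.33 (1.26 to 1.40). Luminal barcodes held 60 of 62, 73 of 73 and 72 of 81 EC Hey2 UMIs, at 123.9, 91.7 and 107.8 CPM, while the capillary barcodes held 0, 0 and 10.5 CPM and the lymphatic barcodes 0 and 3.31 CPM in mgR and mgR-LOS. Luminal barcodes alone gave a ratio of mgR over WT of 0.740 (0.519 to 1.06) and of mgR-LOS over mgR of 1.18 (0.837 to 1.65). Both were short of the fold.

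The core site bound by Rbpj, GTGGGAA, was searched on both strands of 300-base windows from 250 bases before to 50 bases after each RefSeq start (GRCm38.p6). It was present in 2097 of 32851 windows (6.38%) and on both strands in 33 (0.1%). Of the 10 genes, 7 had a window, and Hey2 was the only one of these with a match. Hey1, Heyl and Hes1 had no window and were not searched. Its matches begin at positions -207, on the opposite strand, and -4, on the gene's strand, counted from the start. The windows of Hey2 and of Notch3, the gene with the largest ratio and no match, are shown to 10 bases after the start in gene orientation, with matches in capitals. A match is a run of letters and not a measured binding site.
Hey2, chr10:30842774-30843033, minus strand: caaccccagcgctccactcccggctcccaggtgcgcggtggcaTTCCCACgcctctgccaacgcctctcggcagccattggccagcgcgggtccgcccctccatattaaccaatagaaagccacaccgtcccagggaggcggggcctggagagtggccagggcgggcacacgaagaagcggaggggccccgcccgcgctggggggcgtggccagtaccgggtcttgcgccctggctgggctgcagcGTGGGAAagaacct
Notch3, chr17:32166881-32167140, minus strand: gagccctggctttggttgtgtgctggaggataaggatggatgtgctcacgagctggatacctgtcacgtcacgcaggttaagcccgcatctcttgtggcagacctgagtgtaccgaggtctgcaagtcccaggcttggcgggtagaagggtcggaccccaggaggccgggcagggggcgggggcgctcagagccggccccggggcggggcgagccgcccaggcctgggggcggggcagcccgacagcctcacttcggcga

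Heyl was highest in SMCs in every library. Known as a downstream gene of Notch3 in mural cells (ENSMUSG00000032744, chr4:123233556-123249875, plus strand), it was at 105.4, 71.9 and 73.2 CPM in SMCs and at 68.8, 54.7 and 43.2 in fibroblasts. ECs held 2.25 to 6.95 CPM and immune cells 1.71 to 2.57. The SMC ratio was 0.682 (0.653 to 0.712) for mgR over WT, just short of the fold, and 1.02 (0.975 to 1.06) for mgR-LOS over mgR. Heyl was thus lower in the mgR gate as a whole, in which Notch3 was higher. In the SMC barcodes with the pericyte genes Heyl was at 98.3, 183.8 and 68.3 CPM. Its ratios there were 1.87 (1.30 to 2.64) for mgR over WT and 0.372 (0.243 to 0.571) for mgR-LOS over mgR. The Notch3 ratio of mgR over WT was 11.5 (7.18 to 18.9). Without called doublets, a setting chosen after seeing the data, these Heyl ratios were 1.80 (1.09 to 2.83) and 0.398 (0.236 to 0.692), and that of Notch3 was 5.51 (2.69 to 10.8). The other SMC barcodes held Heyl at 105.6, 71.3 and 73.2 CPM, near the pericyte-gene barcodes in WT and mgR-LOS but not in mgR. Median depth of the pericyte-gene barcodes was 14162, 8721 and 8056 UMIs. Whether they were the same kind of cell in each library was not tested. Within SMC clusters, mgR over WT came to 0.953 (0.831 to 1.09) in cluster 4, 0.723 (0.503 to 1.01) in cluster 5, 0.669 (0.556 to 0.804) in cluster 6, 0.797 (0.506 to 1.24) in cluster 7 and 0.712 (0.593 to 0.862) in cluster 9.

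Fibroblast Heyl differed between the subsets. In the Pi16/Dpp4 barcodes it was at 56.6 CPM in WT, 8.75 in mgR and 9.19 in mgR-LOS, with a ratio of mgR over WT of 0.155 (0.118 to 0.202). In the Gdf10/Hsd11b1 barcodes it was at 99.95, 96.0 and 68.0 CPM, with a ratio of mgR over WT of 0.960 (0.840 to 1.10). The remaining fibroblast barcodes held 64.4, 40.9 and 47.9 CPM, and mgR over WT there came to 0.635 (0.555 to 0.727), also past the fold. The Pi16/Dpp4 barcodes fell mainly in clusters 3 and 8. Those in cluster 3 held 93.8, 15.5 and 19.2 CPM on 233, 212 and 348 barcodes, and those in cluster 8 held 0.732, 4.43 and 3.70 CPM on 105, 422 and 434 barcodes, so the lower Heyl was seen within cluster 3 and not in cluster 8, where it was low in every library. Hey2 in the same subset was at 11.4, 4.21 and 6.13 CPM, with a ratio of mgR over WT of 0.370 (0.231 to 0.594).

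Hey1, the family member of developing and sprouting endothelium (ENSMUSG00000040289, chr3:8663359-8667256, minus strand), was at 15.3, 19.7 and 35.5 CPM in ECs, at 8.09 to 9.62 in fibroblasts, at 3.15 to 4.91 in SMCs and under 1 CPM in immune cells. The ratio of mgR-LOS over mgR was past the fold in ECs, at 1.81 (1.14 to 2.89), and in SMCs, at 1.56 (1.28 to 1.90). Its level was highest in the capillary barcodes, at 26.5, 51.6 and 152.2 CPM on 4, 15 and 29 UMIs, with a ratio of mgR-LOS over mgR of 2.95 (1.53 to 5.92). In the same capillary barcodes the pericyte gene Rgs5 was at 92.7, 1018 and 1758 CPM, and 0 of 22, 4 of 38 and 9 of 27 carried a Notch3 UMI. Without those that reached the pericyte threshold, Hey1 was left with 4, 2 and 5 UMIs on 21, 30 and 17 barcodes, too few to compare the libraries. Luminal Hey1 was at 8.26, 16.3 and 13.5 CPM.

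By summed level, Hes1 was lowest in WT and highest in mgR-LOS in all 4 gates. It encodes a short-lived repressor that Notch induces and that other inputs, such as serum, can also induce (ENSMUSG00000022528, chr16:30064384-30067796, plus strand). In SMCs it was at 55.8 CPM (53.8 to 57.9) in WT, 169.1 (165.4 to 172.9) in mgR and 343.6 (339.3 to 348.0) in mgR-LOS. In fibroblasts it was at 139.6, 205.0 and 267.5 CPM, in ECs at 117.4, 135.9 and 337.6, and in immune cells at 22.2, 30.2 and 51.0. The SMC intervals of the 3 libraries did not overlap. For mgR over WT the ratio was 3.03 (2.90 to 3.16) in SMCs, 1.47 (1.40 to 1.54) in fibroblasts, 1.16 (0.914 to 1.48) in ECs and 1.36 (0.916 to 2.11) in immune cells. Between mgR-LOS and mgR it was 2.03 (1.98 to 2.08) in SMCs, 1.31 (1.26 to 1.35) in fibroblasts, 2.48 (2.12 to 2.92) in ECs and 1.69 (1.44 to 1.97) in immune cells. The mgR-LOS library thus stood further from WT than the mgR library in each gate, although the EC and immune intervals of mgR over WT included 1.

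The thinned share of SMC barcodes with a Hes1 UMI was 5.02%, 12.6% and 23.0%, against 34.6%, 55.7% and 65.0% without thinning, while the thinned immune share was 2.17%, 3.16% and 4.19%. In fibroblasts it was 11.8%, 16.1% and 19.3% (unthinned 48.7%, 60.5% and 57.1%). In ECs it was 17.4%, 12.8% and 13.0% at 1000 UMIs and 22.8%, 22.7% and 36.1% at 2000 (unthinned 43.1%, 44.1% and 54.8%), so that the EC share did not bear out the order of the summed levels, and the EC ratio of mgR-LOS over mgR after thinning was 1.28, short of the fold. Median depth in the SMC gate was 14374, 15175.5 and 8525 UMIs. Within SMC clusters 4, 5, 6, 7 and 9, mgR over WT came to 2.41, 3.09, 2.08, 2.82 and 2.36, each with an interval above 1. Between mgR-LOS and mgR the ratio within those clusters was 2.04, 1.15, 2.75, 3.83 and 1.40, and only that of cluster 5 (0.896 to 1.496) had an interval that reached 1. For mgR over WT, the clusters with higher Hes1 included 6 and 9, in which the Notch3 ratio of that comparison had an interval that included 1. In ECs, Hes1 was at 258.2, 172.0 and 640.4 CPM in the capillary barcodes, at 217.0 and 430.8 in the lymphatic barcodes of mgR and mgR-LOS, and lowest in the luminal ones, at 47.5, 65.3 and 184.2. Its EC ratio of mgR-LOS over mgR was 3.72 (2.66 to 5.28) in capillary, 2.82 (2.02 to 3.98) in luminal and 1.99 (1.55 to 2.54) in lymphatic barcodes. In the capillary barcodes, where Rgs5 differed as given for Hey1, removing those that reached the pericyte threshold left 261.2, 147.7 and 588.3 CPM and a ratio of 3.98 (2.47 to 6.51).

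**Figure D4:**
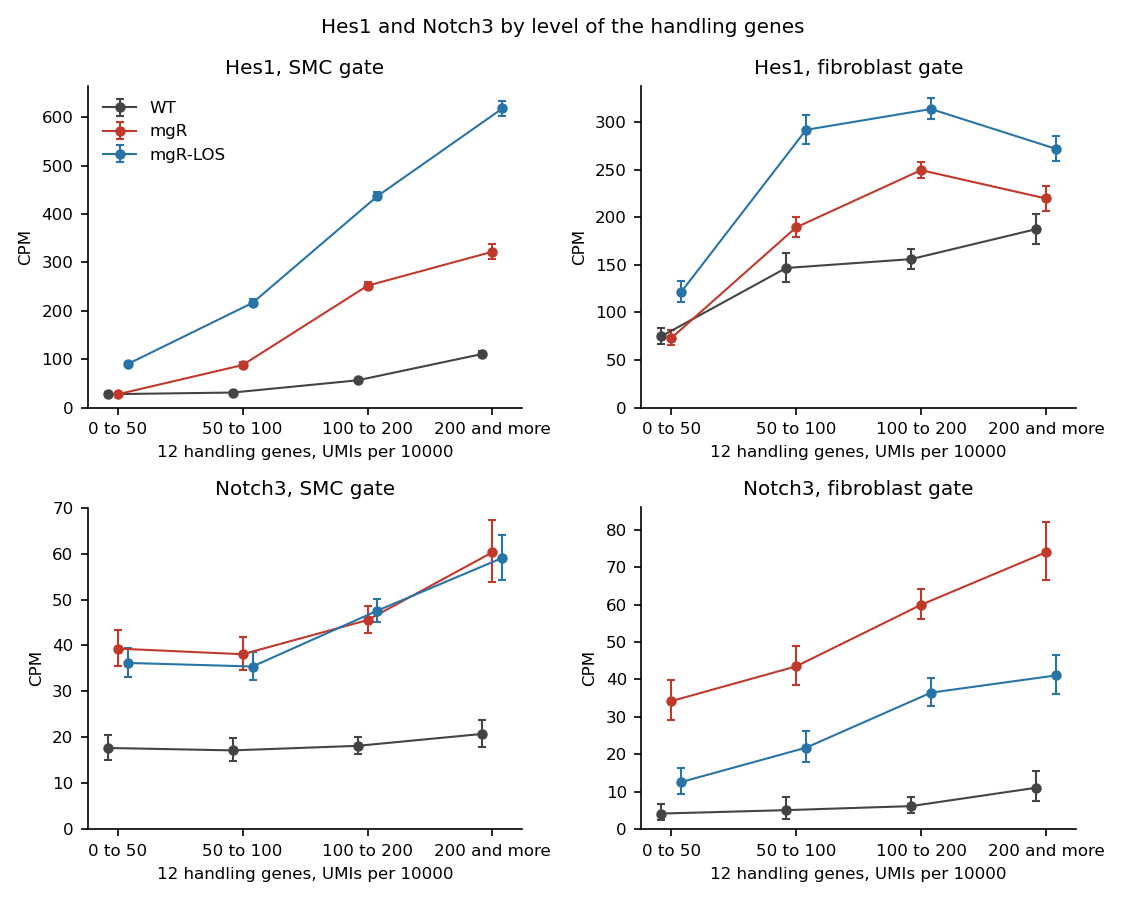
Levels of Hes1 and Notch3 (CPM of summed UMIs, y axis) in barcodes of the SMC and fibroblast gates grouped by the summed UMIs of 12 immediate early and heat shock genes per 10000 UMIs (x axis), with exact Poisson 95% intervals. In SMCs with under 50 such UMIs, Hes1 was 27.6 CPM in WT, 27.5 in mgR and 89.9 in mgR-LOS, while Notch3 was lowest in WT in every band.

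Tissue was digested for an hour, and Hes1 can respond on that time scale, so it was set beside 12 immediate early and heat shock genes (Fos, Fosb, Jun, Junb, Egr1, Atf3, Ier2, Ier3, Dusp1, Hspa1a, Hspa1b and Hsph1). The 12 genes did not share 1 order of libraries. In fibroblasts, Fos was at 2857, 3293 and 3582 CPM but Hspa1a at 634.1, 280.9 and 552.1. The summed level of the 12 had the same order of libraries as Hes1 in fibroblasts, at 12250, 12920 and 14020 CPM. It did not in SMCs, at 12830, 11130 and 11920 CPM, in ECs, at 4839, 6151 and 5643, or in immune cells, at 9729, 10990 and 10920. Within each library, however, SMC Hes1 was higher in each band of barcodes with more of these transcripts. In fibroblasts it was lower in the band of 200 and more than in that of 100 to 200 in mgR, at 219.9 and 249.7 CPM, and in mgR-LOS, at 272.1 and 314.0. In SMC barcodes with under 50 of them per 10000 UMIs, Hes1 was at 27.6, 27.5 and 89.9 CPM, with ratios of 0.995 (0.838 to 1.18) for mgR over WT and 3.27 (2.88 to 3.73) for mgR-LOS over mgR. In those with 100 to 200 it was at 56.3, 251.8 and 437.0 CPM, with ratios of 4.47 (4.20 to 4.76) and 1.74 (1.68 to 1.79). The higher SMC Hes1 of mgR was thus seen in barcodes with 50 or more of these transcripts and not below that, whereas that of mgR-LOS over mgR was seen in every band. In fibroblasts with under 50, mgR over WT came to 0.974 (0.831 to 1.14) and of mgR-LOS over mgR 1.67 (1.45 to 1.91). Notch3 kept its ratio of mgR over WT across the bands, at 2.22 to 2.91 in SMCs and 6.70 to 9.77 in fibroblasts. The part of handling in the Hes1 differences was not tested.

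**Figure D5:**
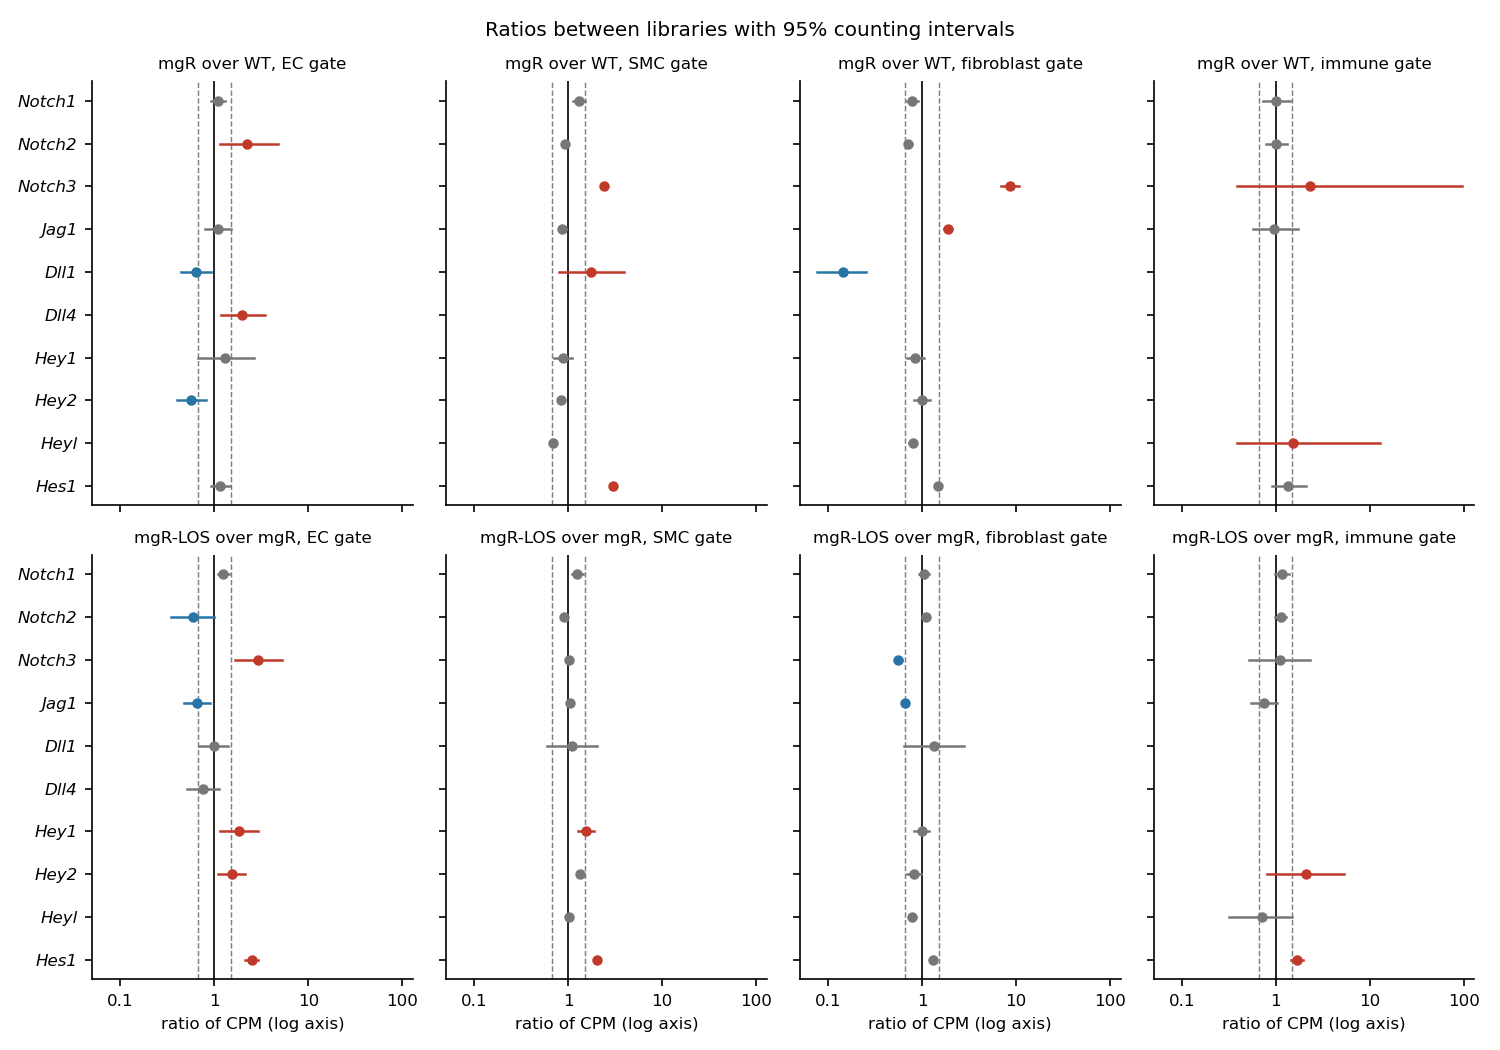
Ratio of CPM between libraries (x axis, log scale) for each gene with at least 20 UMIs over both libraries (y axis), in the EC, SMC, fibroblast and immune gates, for mgR over WT (upper row) and mgR-LOS over mgR (lower row), with exact conditional binomial 95% intervals. Dashed lines mark 1.5-fold, red points are past it upward and blue points downward; the points farthest from 1 are Notch3 at 8.58 and Dll1 at 0.144 in fibroblasts.

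In each gate the number of the 10 genes past the fold was read against all genes with at least 20 UMIs. For mgR over WT, ECs had 2 of 8 genes higher (Notch2 and Dll4) and 2 lower (Dll1 and Hey2), beside 14.0% and 7.75% of all genes. SMCs had 3 of 9 higher (Notch3, Hes1 and Dll1, the last on 31 UMIs) and 0 lower, beside 10.1% in each direction. Fibroblasts had 2 of 9 higher (Notch3 and Jag1) and 1 lower (Dll1), beside 10.1% and 10.6%. Immune cells had 2 of 6 higher (Notch3 and Heyl, on 28 and 37 UMIs) and 0 lower, beside 16.5% and 10.4%. Under the other filters, gates and scalings, Notch3 and Hes1 in SMCs and Notch2 and Dll1 in ECs stayed past the fold in 10 of 10, Notch3, Jag1 and Dll1 in fibroblasts in 9 of 9, Dll4 in ECs in 9 of 10, Dll1 in SMCs in 8 of 10, Hey2 in ECs in 7 of 10, and in immune cells Notch3 in 7 of 8 and Heyl in 3 of 8. The median ratio of the tested members was 1.13, 0.934, 0.846 and 1.19 in the EC, SMC, fibroblast and immune gates, beside 1.05, 0.982, 0.985 and 1.02 over all genes.

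For mgR-LOS over mgR, which shares the mgR library with the comparison above, ECs had 4 of 9 genes higher (Notch3, Hey1, Hey2 and Hes1) and 2 lower (Notch2 and Jag1), beside 10.0% and 10.7% of all genes. The EC Notch3 UMIs, and most capillary Hey1 UMIs of both libraries, lay mainly in barcodes that reached the pericyte threshold. Hey2 was short of the fold in luminal barcodes alone, at 1.18. SMCs had 2 of 9 higher (Hey1 and Hes1) and 0 lower, beside 12.4% and 5.73%. Fibroblasts had 0 of 9 higher and 2 lower (Notch3 and Jag1), beside 8.75% and 6.59%. Immune cells had 2 of 7 higher (Hey2, on 22 UMIs, and Hes1) and 0 lower, beside 9.68% and 8.9%. Of these, Hes1 in SMCs stayed past the fold in 10 of 10 alternatives, Hey1 in SMCs and Notch3, Hey1 and Hes1 in ECs in 9 of 10, Notch3 in fibroblasts and Hey2 and Hes1 in immune cells in 8 of 9, Jag1 in 7 of 10 in ECs and 6 of 9 in fibroblasts, and Notch2 and Hey2 in ECs in 6 of 10. The median ratio of the members was 1.24, 1.09, 0.994 and 1.13, beside 0.979, 1.05, 1.02 and 1.03 over all genes. Over both comparisons, the called ratios nearest to the limit were Heyl at 1.51 in immune cells for mgR over WT, and 2 for mgR-LOS over mgR. The latter were Hey2 at 1.53 in ECs and Jag1 at 0.661 in fibroblasts. Nearest outside the limit were Hes1 at 1.47 in fibroblasts and Heyl at 0.682 in SMCs, both for mgR over WT.

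The rest of the pathway was read from a list of 45 genes for other receptors and ligands, cleavage, glycosylation, endocytosis, the nuclear complex, corepression and other targets. For mgR over WT, 5 of 35 listed genes with enough UMIs were higher and 0 lower in ECs, 3 and 3 of 38 in SMCs, 2 and 2 of 38 in fibroblasts and 2 and 3 of 36 in immune cells. The same counts for mgR-LOS over mgR were 7 and 2 of 37, 3 and 2 of 38, 4 and 0 of 38, and 4 and 0 of 36. They stand beside the shares of all genes given above for each gate: for ECs 14.0% and 7.75% in mgR over WT and 10.0% and 10.7% in mgR-LOS over mgR. The median ratio of the list lay between 0.941 and 1.14 in all 8, so that most of the machinery was within the fold in each gate.

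Rbpj, which carries the signal to DNA, was at 74.0, 82.7 and 93.4 CPM in SMCs, at 88.3, 125.3 and 147.5 in fibroblasts, at 44.6, 51.7 and 86.5 in ECs and at 292.6, 276.8 and 394.6 in immune cells. Of these only the EC ratio of mgR-LOS over mgR, 1.67 (1.26 to 2.23), was past the fold. The endothelial receptor Notch4 was at 24.7, 30.3 and 34.0 CPM in ECs and at most 2.56 CPM in other gates. Nrarp, a feedback inhibitor that Notch induces, was at 48.1, 48.3 and 48.7 CPM in ECs. It thus stayed level in the gate in which Hes1 differed 2.48-fold between mgR-LOS and mgR, although its capillary level was 39.7, 61.9 and 147.0 CPM and its luminal level 57.8, 76.6 and 43.4. In SMCs Nrarp was near the floor, at 0.889, 1.64 and 1.22 CPM, with a ratio of mgR over WT of 1.85 (1.27 to 2.72).

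Among the listed genes past the fold in SMCs were Jag2, a ligand, at 1.86, 6.82 and 4.27 CPM (ratios 3.68 and 0.627), and the Deltex genes Dtx1 and Dtx4, which encode ubiquitin ligases that act on Notch. Dtx1 was at 4.29, 0.895 and 1.75 CPM in SMCs, with ratios of 0.209 (0.146 to 0.291) and 1.96 (1.37 to 2.85), and at 4.91, 1.77 and 5.46 in fibroblasts, with ratios of 0.359 (0.248 to 0.518) and 3.09 (2.24 to 4.32). In ECs, where it was highest, Dtx1 was at 92.7, 151.1 and 108.9 CPM, with a ratio of mgR over WT of 1.63 (1.26 to 2.12). The SMC ratios of Dtx4 were 0.347 and 2.01, on 22 to 70 UMIs per library, and that of Neurl1a, a ligase acting on ligands, was 0.525 for mgR-LOS over mgR. In fibroblasts Hes7 and Lfng, which glycosylates the receptor, had ratios of 3.04 and 1.53 and Aph1c, a subunit of gamma-secretase, 0.578 for mgR over WT and 1.63 for mgR-LOS over mgR.

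In ECs the coactivator Maml1 and the glycosyltransferase Poglut1 had ratios of mgR over WT of 2.23 (1.07 to 5.22) and 1.95 (1.09 to 3.69). For mgR-LOS over mgR, Numbl, an endocytic adaptor, and Maml3 were at 2.18 (1.00 to 4.92) and 1.77 (0.831 to 3.84), and the ligases Mib1 and Fbxw7 at 0.648 (0.485 to 0.860) and 0.539 (0.338 to 0.838). In immune cells Pofut1 and Poglut1 were at 2.33 (1.05 to 6.43) and 1.63 (0.892 to 3.32) for mgR over WT, on 6 and 11 WT UMIs. Spen and Neurl1a were at 0.593 (0.441 to 0.812) and 0.503 (0.209 to 1.46), on 51 and 6 WT UMIs. The Poglut1 and Neurl1a intervals thus included 1. For mgR-LOS over mgR, Aph1b and Maml2 were at 1.83 (1.42 to 2.36) and 1.65 (1.17 to 2.30).

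Immune barcodes carried Notch1 and Notch2 but little of the ligands and Hey genes. In the barcodes with macrophage markers, Notch2 was at 58.7, 58.2 and 67.8 CPM and Hes1 at 24.2, 35.5 and 50.9, with Hes1 ratios of 1.47 (0.943 to 2.41) and 1.44 (1.19 to 1.72). Jag1 in these barcodes was at 17.3, 18.6 and 10.9 CPM, with a ratio of mgR-LOS over mgR of 0.585 (0.407 to 0.824). Barcodes with T cell markers had Hes1 at 0, 12.4 and 80.0 CPM on 0, 8 and 21 UMIs, the WT value allowing up to 31.2 CPM. The macrophage subset made up 65.2%, 57.7% and 70.9% of the immune gate.

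The genes with the profile most like each member over the 12 points of 4 gates and 3 libraries were found among 8843 genes by Pearson correlation of log2(CPM + 1). The points share libraries and gates, so the coefficients are descriptions. Notch1 was nearest to Clptm1, Tal1 and Rgl2 (r of 0.987 to 0.988), Notch2 to Stx4a, Aars and Bri3bp (0.938 to 0.954), and Notch3 to Ereg and Mmgt1 (0.967 and 0.922). Jag1 was nearest to Appbp2, Sema3d and Fzd4 (0.962 to 0.967), and Dll1 to Cyp4b1, Tmem255b and Mall (0.989 to 0.992). Hey2 was nearest to Cdh13, Ccdc141 and Dysf (0.979 to 0.989), Heyl to Col4a5, Ndrg2 and Cercam (0.984 to 0.991), and Hes1 to Rrp8, Wdsub1 and Sfxn1 (0.927 to 0.954).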

How the data were processed

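Single-cell suspensions of pooled ascending aortas were profiled with 3′ v3.1 chemistry. The deposited values are unnormalized UMI counts that the authors made against GRCm38 (mm10). The file headers name Cell Ranger 5.0.1 for WT and mgR and 6.0.1 for mgR-LOS, while the submitters' processing notes name 6.0.1. How barcodes were called was the authors' choice and bears on depth.

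The filter required 600 to 5000 genes and a mitochondrial share of 10% or less. A barcode entered a gate where the mean log1p(UMIs per 10000) of 6 markers reached 0.8 (EC), 2.4 (SMC), 1.2 (fibroblast) or 0.6 (immune) for that panel alone; these limits were set at troughs of the distributions. The panels were Pecam1, Cdh5, Cldn5, Egfl7, Tie1 and Ecscr for ECs; Tpm2, Myl9, Tagln, Acta2, Cnn1 and Myh11 for SMCs; Dpt, Lum, Pdgfra, Serpinf1, Clec3b and Col1a1 for fibroblasts; and Ptprc, Laptm5, Cd52, Tyrobp, Fcer1g and Coro1a for immune cells. Subsets needed a mean of 0.8 on their panel and 20 barcodes. Doublets were scored against artificial pairs, called at 0.8% per 1000 barcodes, and kept. Leiden clusters used 2000 variable genes without the 10 genes (scanpy 1.11.5, 30 components, resolution 1), with no integration of libraries. Counts were summed per gate. Intervals were exact (scipy 1.17.1, Python 3.11.15), and shares thinned to 1000 UMIs omitted shallower barcodes, at most 7 per gate and library. No test was possible with 1 library per condition. The ratio step was tested on simulated data.

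The text names the 10 genes, Notch4, Rbpj, Nrarp, in each gate and comparison the 2 largest and 2 smallest ratios past the fold in the pathway list, the carry-over and handling genes, Fbn1, and 3 like genes per member with 50 CPM somewhere, of which 1 is not reported here. The genes, lists and markers were chosen with earlier results of these data known. Values by cluster, subset and handling band were added after the data were seen. Gene positions are from GENCODE vM21 and promoters from RefSeq.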

Additional observations from a re-analysis of the deposited data

Results flagged for a closer look

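Dll1 had opposite ratios of mgR over WT in different gates. It was 1.75 in SMCs, on 19 and 12 UMIs, against 0.635 in ECs and 0.144 in fibroblasts, with counting intervals that did not overlap 1 in ECs and fibroblasts and did in SMCs. Notch3 had opposite ratios of mgR-LOS over mgR in ECs, at 2.90, and in fibroblasts, at 0.559. The EC value rested on 6 barcodes in mgR and 11 in mgR-LOS, in which Rgs5 summed to 3512 and 2466 CPM. With 1 library per condition the differences between gates were not tested.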

How the results depend on the processing

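The limits of these results are the single library per condition, the few EC barcodes, and mgR-LOS being the shallowest library. No paired analysis was possible because each condition is 1 library, and for the same reason no replicate could be left out. Over the other filters, gates and scalings, a mean over barcodes and thinning, the fibroblast Notch3 ratio of mgR over WT ranged from 5.58 to 8.99, the SMC one from 2.24 to 2.69, the SMC Hes1 ratio from 2.64 to 3.08 and the fibroblast Jag1 ratio from 1.53 to 1.96. For mgR-LOS over mgR, the ratio of Notch3 in fibroblasts ranged from 0.537 to 0.676, and that of Hes1 from 1.89 to 2.11 in SMCs and from 1.28 to 3.37 in ECs. The EC ratio of Hey2 for mgR over WT ranged from 0.394 to 0.995.

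The number of genes past the fold for mgR over WT went from 4 to 2 in ECs with a minimum of 100 UMIs and to 1 at a fold of 2. It rose to 6 in ECs with 200 or more genes or Leiden clusters, and lay between 3 and 5 otherwise. In SMCs it lay between 2 and 4. In fibroblasts it went from 3 to 5 after thinning. In immune cells it went from 2 to 1 at a mitochondrial limit of 5%, without called doublets, as a mean over barcodes, with median-of-ratios scaling and at a fold of 2, to 4 with gating by the highest panel or thinning, and to 0 with 100 UMIs. For mgR-LOS over mgR it went from 6 to 3 in ECs with 100 UMIs and to 2 at a fold of 2. With Leiden clusters or as a mean over barcodes it went to 4, and it lay between 5 and 7 otherwise. In SMCs it went from 2 to 4 after thinning and to 1 with median-of-ratios scaling or at a fold of 2. In fibroblasts it went from 2 to 1 with 200 or more genes, the highest panel or no doublets and to 0 at a fold of 2. In immune cells it went from 2 to 4 with the highest panel or Leiden clusters and to 1 with 100 UMIs or a fold of 2. Shares of all genes past the fold are given for the main setting only. The counts under changed settings therefore cannot be read against all genes. The cause of these changes in number was not tested.

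Directions turned for Dll1 in SMCs (mgR over WT) at a mitochondrial limit of 5%, to 0.131, for Notch3 in immune cells there, to 0.970, and for Heyl in immune cells by Leiden clusters, to 0.763. The limit of 5% left 16.1%, 30.3% and 39.4% of the SMC-gated barcodes in WT, mgR and mgR-LOS. Among settings chosen after seeing the data, Hes1 in SMCs (mgR over WT) came to 0.995 in the lowest handling band, Notch3 in SMCs to 0.554 within cluster 5 and Jag1 in fibroblasts to 0.932 within cluster 0, and fibroblast Notch3 (mgR-LOS over mgR) came to 1.09 in the barcodes with neither fibroblast subset's markers and to 1.43, 1.05 and 1.41 within clusters 0, 2 and 8. Capillary Hey1 (mgR over WT) came to 0.347 (0.0314 to 2.42), on 2 and 4 UMIs, without barcodes that reached the threshold for the pericyte genes, also a setting chosen after seeing the data.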

Other observations

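Barcodes at or above the limit of more than 1 marker panel lay outside the gates and made up 1.49%, 5.40% and 5.15% of those kept in WT, mgR and mgR-LOS. Notch3 was at 27.5 CPM (17.8 to 40.6), 120.4 (110.3 to 131.2) and 59.9 (54.6 to 65.6) in them, and Hes1 at 84.8, 148.5 and 265.9 CPM. Called doublets made up 50 of 80, 193 of 436 and 403 of 655 of these barcodes, against 4.29%, 6.46% and 10.2% of all kept barcodes. The part of doublets in these levels was not tested. Of all Notch3 UMIs, 2.61%, 14.3% and 11.9% lay outside the 4 gates. Cluster 13 held 1 WT, 316 mgR and 10 mgR-LOS barcodes, and its mean SMC and fibroblast panel scores, 2.86 and 1.38, were both above the limits for those gates. Its Notch3 level in mgR was 68.5 CPM. Over all kept barcodes Notch3 stood at 15.3, 44.2 and 40.3 CPM and Hes1 at 74.9, 159.2 and 307.0 CPM.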
